A study of Mus musculus with 2 samples.

Results

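Macrophage-like cells were a minor population of the fetal mouse pancreas in these data, 63 of the 1609 cell barcodes that passed the filters on depth and mitochondrial RNA (1635 barcodes in all). The cells came from wild-type mouse embryos at E14.5 and are labelled as pancreatic islet. They had been flow-sorted for low and high Ngn3eGFP, a green fluorescent reporter of Neurog3, the transcription factor that starts endocrine differentiation. They were profiled in droplets on the inDrop platform, whose primers carry a cell barcode and a random tag for every captured transcript, so that tags (UMIs, unique molecular identifiers) can be counted per gene and cell. The 2 libraries, numbered 1 and 2 as their labels number the replicates, form a single group, so no condition was compared. The labels do not say whether the libraries came from separate embryos, nor which barcodes came from the low and which from the high gate. The p-values below therefore measure only how the difference between members and other barcodes varied between these 2 samples. That spread was shared over genes, is not each gene's own, and may be technical.

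Members were chosen by their own counts. A barcode needed at least 1000 UMIs, at most 20% mitochondrial UMIs and a sum of at least 4 UMIs of Csf1r, C1qa, C1qb and Fcer1g. It also had to hold under 10 UMIs of the insulin genes Ins1 and Ins2 and under 15 UMIs of the acinar genes Cpa1, Ctrb1, Pnliprp1 and Clps. Library 1 held 7 members among 528 barcodes (1.33%, exact 95% binomial interval 0.535% to 2.71%), and library 2 held 56 among 1081 (5.18%, 3.94% to 6.67%). The intervals cover counting error only, and the sort can set both shares.

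Macrophages are phagocytes that take up dying cells, debris and microbes and digest them in lysosomes. Before birth they derive from yolk sac and fetal liver progenitors rather than from bone marrow, seed each organ as it forms, and depend on CSF1 acting through its receptor, the product of Csf1r. Fetal tissue macrophages are known for Mrc1 (the mannose receptor CD206), Lyve1 (a hyaluronan receptor) and the C1q genes. In the pancreas, macrophages lie around ducts, islets and vessels from fetal stages onwards.

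The rule's own genes are given as a description, with no test. Levels are given as CPM, the usual depth-scaled count: a gene's share of all UMIs summed over the barcodes of a class, so that levels can be compared between sums of different depth. In the members 1 UMI was worth 54.3 CPM in library 1 (18415 UMIs summed) and 5.90 CPM in library 2 (169444 UMIs), so library 1 values are coarse. Csf1r stood at 2118 and 1334 CPM in the members of libraries 1 and 2, against 13.9 and 14.0 CPM in all other barcodes. C1qa stood at 1249 and 1322 CPM against 14.4 and 23.0 CPM. C1qb, 1 of the 3 chains of the complement starter C1q, stood at 1846 and 997 CPM against 1.60 and 7.45 CPM. Fcer1g, the signalling chain shared by Fc receptors, stood at 1086 and 1092 CPM against 4.27 and 5.59 CPM. Each of these genes was at 0 UMIs in some members, with Csf1r found in 50, C1qa in 50, C1qb in 49 and Fcer1g in 55 of 63, since the rule sets only their sum.

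**Figure D1:**
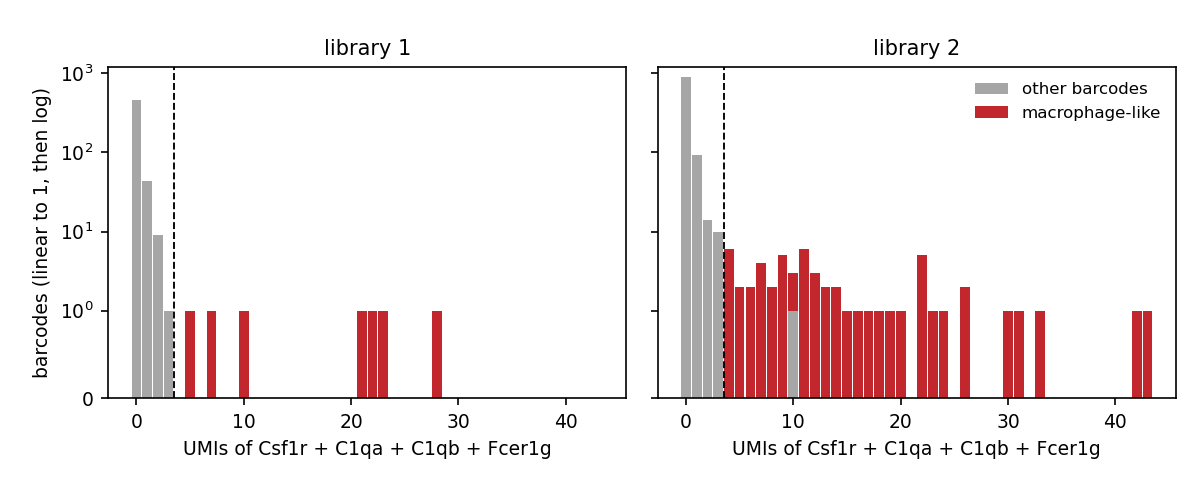
Number of barcodes (vertical axis, linear to 1 and logarithmic above) by their summed UMIs of Csf1r, C1qa, C1qb and Fcer1g (horizontal axis) in each library, with members in red and other barcodes in grey. The dashed line is the threshold of 4 UMIs, and the single grey barcode to its right, at 10 UMIs, was kept out by 66 insulin UMIs.

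Just inside the threshold, 9 members held 4 or 5 UMIs of the 4 genes, and just outside it 34 barcodes held 2 or 3. Mrc1, which the rule did not use, was found in 6 of those 9 members and in 6 of those 34 barcodes, at 1512 and 102 CPM. Lyve1 stood at 1134 and 183 CPM, and Maf at 945 and 47.4 CPM in the same order. Among members, 31 held UMIs of all 4 genes, 20 of 3, 8 of 2 and 4 of only 1. The members' marker sum ran from 4 to 43 with a median of 11.

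Some members stood apart from the rest. In 5 members Plac8, a gene of monocytes and other myeloid cells, held 5 to 11 UMIs, and the other 58 members held 0. These 5 were 1 member of library 1 and 4 of library 2, and all carried UMIs of Ccr2, the receptor that brings monocytes out of the bone marrow, while Mrc1, Lyve1 and Pf4 were at 0 UMIs in all of them. Among these 5, 1 member held 9 UMIs each of the mast cell and basophil genes Cpa3 and Gata2, 8 of Prss34, 4 of Mpo, 7 of Il6 and 10 of Osm, and 0 of C1qa, C1qb and Csf1r, which goes against its label. In 4 other members, all of library 2, Gcg, the glucagon gene, held 15 to 23 UMIs. Of those, 1 held 6457 UMIs with Gcg at 23, Pyy at 8, Chgb at 11, Tmsb4x at 2, C1qa at 4 and the other 3 marker genes at 0, which also goes against the label. A further member carried 10 UMIs of Spp1 and 5 of Neurog3 beside 10 each of Mrc1 and Lyve1. The 2 libraries shared 3 barcode sequences, 1 of them a member in library 2. The doublet caller Scrublet marked 12 barcodes in each library, and these were kept in the values below. Of them 1 was a member, and it was 1 of the 4 members carrying Gcg.

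The label was checked against further macrophage genes. Tyrobp, Adgre1 (the F4/80 antigen), Cd68, Spi1 and Aif1 were called higher in the members. Ptprc, the pan-leukocyte gene CD45, was not, with 217 and 207 CPM against 77.4 and 63.4 CPM. Of the genes that define other blood cells, some were at 0 and some were carried by a few members. Mcpt4, Camp, Ltf, Elane, Cd3d, Cd3g, Cd209a and Ccr7 held 0 UMIs in the 63 members, and the globin genes Hba-a1, Hba-a2 and Hbb-bs also held 0. Cpa3 held 9 UMIs in 1 member, Gata2 10 in 2, Prss34 10 in 3, Mpo 4 in 1, S100a8 5 in 2 and Plac8 42 in 5. None of the tested neutrophil (1 gene), mast cell (5), dendritic cell (2), lymphocyte (3), endothelial (8), mesenchymal (8) or Schwann cell (6) markers was called by edgeR. DESeq2 gave an adjusted p for fewer of them (1, 5, 1, 0, 5, 6 and 4 in the same order) and called 0. With no library term 1 mast cell marker was higher and 2 mesenchymal markers were lower. At an unadjusted p below 0.05, edgeR put 1 mast cell marker higher and 3 mesenchymal markers lower, and 0 of the other markers of these lists. Summed over each list, neutrophil markers stood at 109 and 100 CPM against 80.1 and 61.2 CPM, mast cell markers at 217 and 248 CPM against 141 and 136 CPM, and lymphocyte markers at 109 and 76.7 CPM against 123 and 84.2 CPM. Of 5 tested monocyte markers 2 were higher, Ccr2 and Plac8, and 0 without the 5 members that carry Plac8. For Plac8 that loss was fixed by the choice of members left out, and all 5 also carried Ccr2.

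Members were compared with all 1546 other barcodes over UMIs summed per library and class, which made 4 sums. For levels by class, the other barcodes were split in turn by Ins1 plus Ins2 of at least 10 UMIs (insulin-high), acinar genes of at least 15 (acinar-high), and Neurog3, Chgb and Spp1 of at least 4 each, and the rest are called remaining. Of 13867 genes tested, 248 (1.79%) were higher and 89 (0.642%) were lower in the members at an adjusted p below 0.05 by edgeR's quasi-likelihood test with library as a term. DESeq2 gave 240 and 87. Of 52 genes described with full statistics, 16 share exon sequence with another gene, and whether the counting used strand is not given in the sources used here. The sign was the same in both libraries for 311 of these 337 genes. Of the 248 higher genes, 26 held 0 UMIs in the library 1 members, so their rise rests on library 2. A lower gene with 0 UMIs in those members counts as the same sign. The median log2 fold change over all genes tested was -0.25, and -0.40 with RLE in place of TMM scaling, and folds are to be read against that shift. The members were gated on macrophage genes, so genes carried by the same cells follow from the gate, and the counts describe what the gated cells hold. Without the 5 members carrying Plac8 the counts were 159 higher and 84 lower, and without the 4 members carrying Gcg they were 247 and 129. In the fit without the Plac8-carrying members the median over all genes tested was -0.62. Folds from that fit are to be read against this larger shift.

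**Figure D2:**
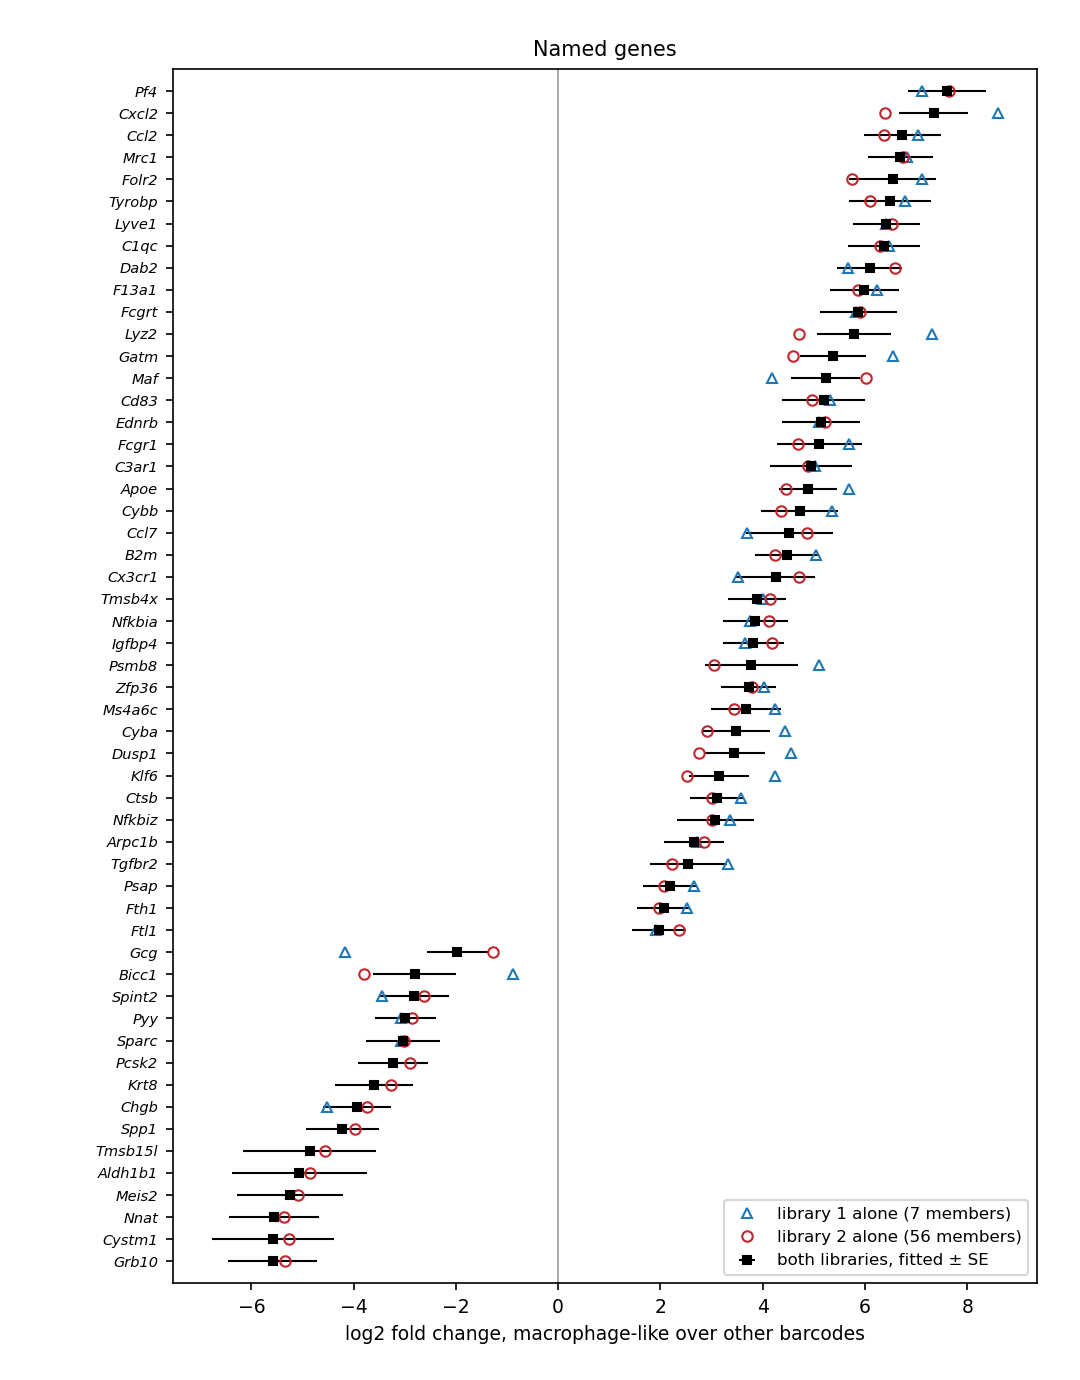
Log2 fold change of 54 genes (vertical axis) in macrophage-like over other barcodes: black squares are the fit over both libraries with its SE, triangles library 1 alone and circles library 2 alone, with a pseudocount of 1 CPM. The sign was the same in both libraries for all 54, and 9 genes with 0 UMIs in the library 1 members have no triangle.

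Regulatory sequence was set beside these levels for genes that stand out in the members. The C1q genes lie side by side on the minus strand of chromosome 4 (GRCm38, positions from GENCODE M21), C1qb at chr4:136880129-136886187, C1qc at chr4:136889804-136893065 and C1qa at chr4:136895917-136898803. Mrc1 lies at chr2:14229392-14332057 and the chemokine gene Pf4 at chr5:90772435-90773383. The 5 promoters below, from RefSeq on GRCm38.p6, run 5′ to 3′ on the gene's strand from 250 bases before the start to 50 bases after it, and were picked, with the matches known, from 7 examined (these, F13a1 and Fcer1g) to show promoters with and without the letters described next. Capitals mark the core letters GAGGAA bound by PU.1, the product of Spi1, or their reverse complement TTCCTC.
C1qb promoter, chr4:136886151-136886450, minus strand: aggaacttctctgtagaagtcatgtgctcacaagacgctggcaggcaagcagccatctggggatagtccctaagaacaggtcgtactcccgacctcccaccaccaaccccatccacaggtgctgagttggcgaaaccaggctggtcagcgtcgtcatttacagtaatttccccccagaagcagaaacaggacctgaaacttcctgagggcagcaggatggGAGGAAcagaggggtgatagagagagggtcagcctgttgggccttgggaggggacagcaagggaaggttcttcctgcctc
C1qc promoter, chr4:136892865-136893164, minus strand: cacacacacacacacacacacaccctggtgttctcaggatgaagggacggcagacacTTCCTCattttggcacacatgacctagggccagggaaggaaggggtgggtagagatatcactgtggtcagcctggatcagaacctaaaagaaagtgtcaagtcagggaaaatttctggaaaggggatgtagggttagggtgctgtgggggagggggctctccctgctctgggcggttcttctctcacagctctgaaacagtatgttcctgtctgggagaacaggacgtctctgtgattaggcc
Mrc1 promoter, chr2:14229164-14229463, plus strand: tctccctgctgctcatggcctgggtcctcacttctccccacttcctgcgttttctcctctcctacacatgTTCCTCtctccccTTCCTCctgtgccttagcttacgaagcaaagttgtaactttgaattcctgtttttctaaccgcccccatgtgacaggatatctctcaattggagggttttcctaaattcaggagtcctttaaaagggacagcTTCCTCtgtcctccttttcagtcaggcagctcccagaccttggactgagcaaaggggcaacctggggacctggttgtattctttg
Folr2 promoter, chr7:101857141-101857440, minus strand: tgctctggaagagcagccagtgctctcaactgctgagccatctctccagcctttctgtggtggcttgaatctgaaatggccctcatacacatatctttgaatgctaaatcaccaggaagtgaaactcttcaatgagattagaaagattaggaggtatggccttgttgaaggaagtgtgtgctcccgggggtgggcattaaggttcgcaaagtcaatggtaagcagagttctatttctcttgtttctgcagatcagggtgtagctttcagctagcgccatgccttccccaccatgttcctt
Pf4 promoter, chr5:90772185-90772484, plus strand: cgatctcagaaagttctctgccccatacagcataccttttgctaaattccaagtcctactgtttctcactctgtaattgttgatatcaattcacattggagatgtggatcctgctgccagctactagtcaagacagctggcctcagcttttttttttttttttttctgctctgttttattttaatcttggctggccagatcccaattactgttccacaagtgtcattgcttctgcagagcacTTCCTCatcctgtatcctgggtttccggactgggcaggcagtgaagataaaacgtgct

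C1qb, C1qc and Pf4 each held 1 match, first base 30, 193 and 8 bases before the start, and Mrc1 held 3, at 180, 167 and 35 bases. F13a1 held 2, and Folr2 and Fcer1g held 0. F13a1 and Folr2 have 2 listed starts each, of which 1 was examined. GAGGAA was found on either strand in 70 of the 187 promoters of genes called higher (37.4%), in 14 of the 69 of genes called lower (20.3%) and in 26.9% of the 10377 promoters of tested genes. The share was 28.3% among all 27025 promoters listed. The MAF half-site TGCTGAC was in 3.21% of the promoters of genes called higher and 3.58% of those of tested genes. The C/EBP half-site TTGCAC was in 9.63% and 8.60%. A match is a run of letters, not a bound site, and these shares carry no test.

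Opsonin genes and their receptors are described first. All 5 tested genes of the list of complement and its receptors were higher, with a median log2 fold change of 4.95. C1qc, the third C1q chain, held 12 UMIs (652 CPM) in library 1 and 182 UMIs (1074 CPM) in library 2, against 6.41 and 12.7 CPM in other barcodes. It was detected in 52 of 63 members (median depth 2893 UMIs) and in 2.47% of the insulin-high barcodes (median 3567 UMIs), the share taken here as background. Its log2 fold change was 6.37 ± 0.70 (SE, 2 libraries; edgeR, adjusted p = 3.07e-16). C3ar1, the receptor for the C3a fragment, stood at 380 and 295 CPM against 10.7 and 9.01 CPM, 4.95 ± 0.80 on the log2 scale. C5ar1 and Cfp (properdin) were also higher, and C4b and Cfb held 0 UMIs in members.

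Of the 14 tested genes for Fc receptors and ITAM signalling, the tyrosine-based relay that these receptors use, 10 were higher and 0 lower, with a median log2 fold change of 3.30. Tyrobp, the adaptor DAP12, held 14 UMIs in library 1 and 62 in library 2 (760 and 366 CPM) against 5.87 and 4.35 CPM. It was detected in 39 members and its log2 fold change was 6.49 ± 0.80 (edgeR, adjusted p = 6.42e-13). Fcgr1, the high-affinity IgG receptor (chr3:96282909-96293969), stood at 272 and 307 CPM against 4.27 and 10.9 CPM, 5.11 ± 0.84. Fcgr3, Trem2, Lyn, Ptpn6, Inpp5d, Plcg2 and Btk were among the other genes called. Trem2, a lipid-sensing receptor, was low, with 5 and 15 UMIs and an adjusted p of 0.0435 by edgeR. Syk, the kinase that ITAMs recruit, had a log2 fold change of 2.53 ± 0.81 and was not called.

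The next group holds receptors for taking up dying cells and debris. Of 17 tested scavenger and efferocytosis genes, 9 were higher and 0 lower (median 2.88). Mrc1 held 33 UMIs in library 1 and 477 in library 2, which is 1792 and 2815 CPM, against 14.95 and 25.2 CPM in other barcodes. It was detected in 53 members with at most 26 UMIs in any of them, and in 10.5% of insulin-high barcodes. Its log2 fold change was 6.69 ± 0.64 (edgeR, adjusted p = 9.34e-22). Lyve1 (chr7:110850607-110863239) held 19 and 449 UMIs, 1032 and 2650 CPM against 11.2 and 27.6 CPM, and reached 39 UMIs in 1 member. Its log2 fold change was 6.42 ± 0.65. Folr2, a folate receptor of tissue macrophages, was found in 22 members, at 434 and 218 CPM against 2.14 and 3.11 CPM.

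Stab1, a scavenger receptor, stood at 760 and 1086 CPM against 49.7 and 56.8 CPM. Gas6, a protein that bridges phosphatidylserine on dying cells to TAM receptors, stood at 1140 and 909 CPM against 43.3 and 48.1 CPM. Of the 2 TAM receptors tested, Mertk had a log2 fold change of 2.25 ± 0.83 and Axl 1.51 ± 0.80, and neither was called. Msr1, Cd36, Pros1 and Colec12 were called higher. Timd4, a phosphatidylserine receptor of many long-lived resident macrophages, held 0 UMIs in 63 members, which allows a share of members with a UMI of up to 4.76%. Cd163 was found in 18 members and was not called (2.25 ± 0.78).

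Of 31 tested lysosomal genes, 14 were higher and 0 lower, with a median log2 fold change of 2.31, and 30 of 31 had a positive fold. The summed level of the list was 20310 and 15722 CPM in the members against 3551 and 3549 CPM in other barcodes. Ctsb, a cysteine protease, stood at 3421 and 2467 CPM against 286 and 307 CPM, 3.10 ± 0.53 (edgeR, adjusted p = 1.07e-06). Psap, the saposin precursor, stood at 2281 and 1233 CPM against 359 and 292 CPM, and its call was lost without the Plac8-carrying members (1.73, adjusted p = 0.23 by edgeR). Ctsc, Ctss, Lgmn, Laptm5, Grn and Cd68 were called with log2 fold changes of 4.46, 5.02, 4.01, 4.63, 3.56 and 4.69. Lamp1, Lamp2 and Cd63, membrane proteins of lysosomes in most cell types, had log2 fold changes of 1.62, 0.48 and -0.59 and were not called. Without the 5 Plac8-carrying members 8 lysosomal genes were called. The list's median was then 1.91, beside a median of -0.62 over all genes tested, so the loss of calls is not a matching loss of fold.

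Iron and haem genes gave 5 calls among 13 tested, all higher (median 1.86), and 2 without the Plac8-carrying members. Fth1 and Ftl1, the ferritin chains, stood at 2661 and 1983 CPM against 463 and 503 CPM, and at 2118 and 2715 CPM against 562 and 530 CPM. Ferritin genes have many near-identical copies, so their counts are uncertain. Without the Plac8-carrying members their log2 fold changes were 1.82 and 1.67, with adjusted p of 0.191 and 0.312 by edgeR. The list's median was then 1.66, beside a median of -0.62 over all genes tested. Hmox1, which opens the haem ring, was found in 34 members at 163 and 525 CPM against 20.3 and 17.4 CPM. Slc40a1, the iron exporter ferroportin, and Blvrb, a biliverdin reductase, were also higher.

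Lipid handling genes gave 1 call among 11 tested and a median log2 fold change of 0.28, and 4 calls with no library term (of 11) or with the split into 6 classes (of 10). The gene called was Apoe, the apolipoprotein that carries lipid out of macrophages, with 62 UMIs in library 1 and 378 in library 2. Apoe stood at 3367 and 2231 CPM against 64.1 and 100 CPM, was found in 57 members, and had a log2 fold change of 4.89 ± 0.57 (edgeR, adjusted p = 3.05e-14). Across the 6 other classes and both libraries it lay between 40.7 and 147 CPM. Abca1, a cholesterol exporter, had a log2 fold change of 1.70 ± 0.67 and was not called. Nr1h3, the sterol sensor LXR-alpha, held 0 UMIs in members.

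**Figure D3:**
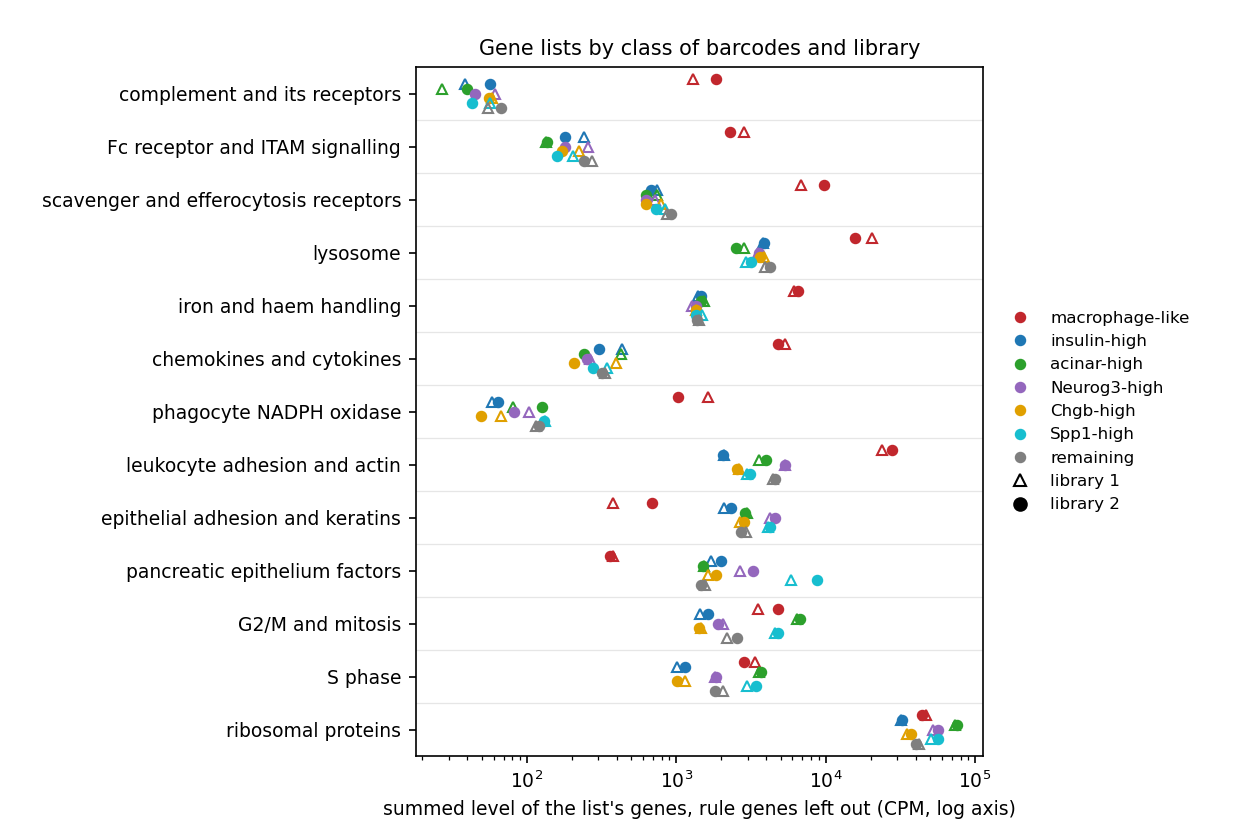
Summed level of 13 gene lists, leaving out the genes of the selection rule (CPM, logarithmic horizontal axis) in macrophage-like barcodes (red) and 6 classes of other barcodes, for library 1 (triangles) and library 2 (circles). In the 8 upper lists the macrophage-like points lie right of all 6 other classes in both libraries; in the 2 epithelial lists they lie left, and in the 3 lower lists between other classes.

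Of 25 tested transcription factors of the lineage, 10 were higher and 1 lower, with 5 higher without the Plac8-carrying members. Spi1, the gene of the lineage factor PU.1, stood at 543 and 336 CPM against 20.3 and 8.39 CPM, and was found in 32 members. Maf, a factor of resident macrophages, held 8 UMIs in library 1 and 326 in library 2 (434 and 1924 CPM) against 23.0 and 28.6 CPM, 5.23 ± 0.68. It was found in 57 members. Klf6 stood at 1303 and 738 CPM against 68.4 and 129 CPM, 3.15 ± 0.58. Cebpa, Cebpb, Irf5, Irf8, Mef2c, Runx1 and Fli1 were also called higher.

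Receptors for growth factors and chemokines gave 6 calls among 18 tested genes, all higher (median 1.87), and 3 without the Plac8-carrying members. Cx3cr1, the fractalkine receptor, stood at 217 and 584 CPM against 18.2 and 21.4 CPM, 4.25 ± 0.78, and was found in 39 members. Ccr2 held 34 UMIs in all, in 9 members, and its call (3.33 ± 0.76) was lost without the Plac8-carrying members. Tgfbr2, the TGF-beta receptor, had a log2 fold change of 2.54 ± 0.75, and its call was lost with RLE scaling (adjusted p = 0.0734) and with DESeq2 (adjusted p = 0.0569). Ccr1, Tnfrsf1a and Tnfrsf1b were also called. Csf2ra and Flt3 held 3 and 2 UMIs.

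The ligands of the CSF1 receptor were not called, and neither was high in the members. Csf1 stood at 54.3 and 70.8 CPM in the members and between 51.6 and 115 CPM in the 6 other classes. Il34 held 2 UMIs in members and at most 20.3 CPM elsewhere. Cxcl12, a chemokine gene that mesenchyme and other stroma carry, was at 29.5 CPM in the library 2 members and at 357 and 524 CPM in the Spp1-high barcodes. Its log2 fold change of -2.66 ± 0.97 was not called. The monocyte chemokines Ccl2 and Ccl7, neighbours at chr11:82035571-82037453 and chr11:82045712-82047525, were both higher in the members. Ccl2 stood at 760 and 626 CPM against 4.81 and 6.52 CPM, 6.73 ± 0.75 (edgeR, adjusted p = 1.12e-15), and Ccl7 at 163 and 336 CPM against 11.7 and 10.6 CPM.

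Chemokines and cytokines were called higher in 10 of 17 tested genes, with a median log2 fold change of 3.84. Cxcl2, a neutrophil attractant (chr5:90903871-90905938), held 45 UMIs in library 1 and 183 in library 2, 2444 and 1080 CPM against 5.34 and 11.8 CPM. It was found in 42 members with up to 22 UMIs, and its log2 fold change was 7.34 ± 0.68 (edgeR, adjusted p = 2.81e-23). Pf4, best known as a platelet factor, held 12 and 182 UMIs, 652 and 1074 CPM against 3.74 and 4.35 CPM, 7.61 ± 0.76. It was found in 45 members, while the other platelet genes Ppbp and Gp9 held 0 UMIs in them. Ccl3, Ccl4, Ccl9, Ccl12, Ccl24, Cxcl10, Il18 and Tnf were also higher. Ccl3 was found in 25 members, Ccl4 in 23 and Tnf in 20, against 53 for Mrc1.

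Of 15 tested genes of antigen presentation 3 were higher, namely B2m, Psmb8 and Cd86. B2m, the light chain of MHC class I, stood at 1032 and 903 CPM against 30.4 and 46.6 CPM, 4.48 ± 0.62. The genes of MHC class II were near 0. H2-Aa held 1 UMI in each library, H2-Ab1 held 0 and 1, H2-Eb1 held 0, and the invariant chain gene Cd74 held 3 and 3. H2-K1 and H2-D1 were not analysed here.

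Growth factor and matrix genes split, with 4 higher and 2 lower of 23 tested and a median of 0.01. Igfbp4, an IGF-binding protein, stood at 869 and 1422 CPM against 68.4 and 77.6 CPM, 3.81 ± 0.60. F13a1, a transglutaminase subunit that crosslinks fibrin, stood at 760 and 1104 CPM against 9.08 and 18.0 CPM and was found in 50 members. Nrp1 and Tgfbi were also higher. Igf2 and Spp1 were lower. Spp1, which epithelial trunk cells carry, held 0 and 12 UMIs against 827 and 1122 CPM, and 10 of the 12 were in 1 member. Bmp2 held 37 UMIs in 15 members of library 2 and 0 in library 1, and did not pass the filter on low counts. Vegfa, Pdgfa, Fn1 and Mmp14 were not called, and Mmp9, Mmp13 and Timp1 held 0 UMIs.

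Leukocyte adhesion and actin genes were higher in 13 of 27 tested, with 0 lower (median 2.25). Tmsb4x, the actin-binding peptide thymosin beta-4, held 297 UMIs in library 1 and 3124 in library 2, 16128 and 18437 CPM against 1003 and 1036 CPM. It was found in all 63 members, with up to 191 UMIs, and in 46.3% of insulin-high barcodes. Among other classes it was highest in the Neurog3-high barcodes, at 2157 and 2213 CPM. Arpc1b, Coro1a, Rac2, Vav1, Fermt3, Cd53, Cyth4, Arhgdib, Cotl1, Itgb2, Lst1 and Aif1 were the other genes called. The phagocyte NADPH oxidase gave 3 calls among 4 tested. Cybb, its catalytic chain, stood at 434 and 401 CPM against 9.61 and 18.6 CPM, and its partner Cyba at 923 and 330 CPM against 41.7 and 42.9 CPM.

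Genes known from microglia and other tissue macrophages were higher in 10 of 20 tested and lower in 1, Sparc. Adgre1 and Fcrls stood at 326 and 354 CPM and at 272 and 342 CPM, against at most 13.3 CPM for either in other barcodes. Ms4a6c, Ms4a6b and Ms4a6d, members of a gene family whose reads may be shared, were higher too. P2ry12, P2ry6, P2rx7, Gpr34 and Ms4a7 were also called higher, while Tmem119 and Sall1 held 2 and 1 UMIs. Hpgds, a prostaglandin D synthase, was found in 29 members (2.23 ± 0.72) and was not called.

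Signalling from Toll-like receptors gave 5 calls among 18 tested. Nfkbia, the NF-kappaB inhibitor, stood at 652 and 838 CPM against 47.5 and 46.9 CPM, and Nfkbiz at 272 and 313 CPM against 25.6 and 38.2 CPM. Tnfaip3, Tlr4 and Cd14 were also called, and the interferon-response genes Ifit1, Ifit2 and Ifit3 held 1, 1 and 0 UMIs. Of 24 immediate-early and heat shock genes, 5 were higher. Zfp36, whose product speeds the decay of cytokine mRNAs, held 59 and 539 UMIs, 3204 and 3181 CPM against 197 and 229 CPM, 3.72 ± 0.54. Dusp1, a phosphatase of MAP kinases, stood at 1466 and 555 CPM against 61.4 and 81.4 CPM. Fos, Jun, Egr1 and the heat shock genes Hspa1a, Hspa1b, Hspa8 and Hsp90aa1 were not called.

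Outside the lists, the 6 largest rises were Dab2, Fcgrt, Lyz2, Gatm, Cd83 and Ednrb. Dab2, an endocytic adaptor (chr15:6299788-6440712), held 20 and 604 UMIs, 1086 and 3565 CPM against 20.3 and 36.3 CPM, 6.09 ± 0.64. Fcgrt, the neonatal Fc receptor, stood at 543 and 649 CPM against 8.54 and 9.94 CPM. Lyz2, the lysozyme gene, held 97 UMIs in 27 members, 25 of them in 1 Plac8-carrying member. Gatm, an enzyme of creatine synthesis, stood at 1683 and 655 CPM against 17.1 and 26.1 CPM. Cd83 and Ednrb, the endothelin B receptor, were found in 19 and 30 members.

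Genes of the pancreatic epithelium were lower in the members. Of 17 tested epithelial adhesion and keratin genes 6 were lower, of 17 epithelial transcription factors and markers 5, of 18 endocrine lineage genes 12 and of 6 tested islet hormones all 6. The last 2 lists depend on the class compared. Islet hormones without Ins1 and Ins2 summed to 326 and 761 CPM in members, 188 and 397 in acinar-high, 305 and 523 in Spp1-high and 1249 and 680 in Neurog3-high barcodes. Endocrine lineage genes summed to 489 and 844, 578 and 461, and 768 and 904 CPM in the first 3 of these. The insulin-high, Chgb-high and remaining barcodes were higher for both lists. Chgb, chromogranin B, stood at 54.3 and 82.6 CPM against 1273 and 1121 CPM, -3.94 ± 0.67. Krt8, a keratin of simple epithelia, held 0 and 9 UMIs against 544 and 524 CPM, and Spint2 held 1 and 16 against 599 and 585 CPM. Ppy, pancreatic polypeptide, held 0 UMIs in members. Set against 3 UMIs over both libraries, its log2 fold change was at most -3.02. Neurog3 held 15 UMIs in 10 members, 163 and 70.8 CPM against 702 and 638 CPM.

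Gcg was the least certain of these. It held 1 and 78 UMIs in 12 members, 71 of them in the 4 Gcg-carrying members, 54.3 and 460 CPM against 993 and 1111 CPM. Its log2 fold change was -1.97 ± 0.59 (edgeR, adjusted p = 0.0381), and DESeq2 did not call it (-2.78, adjusted p = 0.447). Against the equal-weight mean of 6 classes it was positive, 0.81, since Gcg outside the members lay mostly in the remaining class, at 3157 and 3985 CPM. Pyy, peptide YY, stood at 163 and 248 CPM against 1379 and 1809 CPM.

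The 6 largest falls outside the lists were Grb10, Cystm1, Nnat, Meis2, Aldh1b1 and Tmsb15l. Grb10, an adaptor of insulin and IGF1 receptor signalling (chr11:11930508-12038683), held 0 and 3 UMIs in members against 783 and 762 CPM, -5.58 ± 0.87 (edgeR, adjusted p = 5.68e-08). Nnat, neuronatin, held 0 and 3 UMIs against 681 and 764 CPM. Meis2 held 2 UMIs in all, and Cystm1, Aldh1b1 and Tmsb15l held 1 each. Tmsb15l shares exons with Tmsb15b1 and Tmsb15b2, so its count is uncertain.

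Proliferation genes were present in the members. Of 34 tested G2/M genes and 33 tested S phase genes 0 were called by edgeR or DESeq2, with medians of 0.45 and 0.27, and 1 and 2 were higher at an unadjusted p below 0.05. Without the Plac8-carrying members both medians turned negative, -0.11 and -0.05, beside a median of -0.62 over all genes tested. These counts of 0 depend on the model: with the other barcodes split into 6 classes of equal weight, 9 of 33 G2/M and 4 of 33 S phase genes were higher, and with no library term 4 of 34 and 2 of 33. The G2/M list summed to 3530 and 4804 CPM in the members, above the insulin-high barcodes (1443 and 1621 CPM) and below the acinar-high (6448 and 6735 CPM). Mki67 stood at 217 and 271 CPM, and 22 members held at least 2 UMIs of Mki67 and Top2a together, while 29 held 0. Ribosomal protein genes gave 0 calls among 49 tested and glycolysis genes 0 among 19 by edgeR or DESeq2, with 0 and 4 higher at an unadjusted p below 0.05. The split into 6 classes gave 1 lower ribosomal gene and 6 higher glycolysis genes, and the model with no library term 0 and 4. Rps12 held 0 UMIs in every barcode, and ribosomal genes have near-identical copies.

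Among members, most shared a common profile and a few did not. Mrc1 and Lyve1 were both found in 47 of 63 members, and in 3 of the 7 in library 1. In the 47, Folr2 held 43 of its 45 UMIs, Pf4 189 of 194, Gas6 162 of 175 and F13a1 185 of 201. Those 47 held 137340 of the members' 187859 UMIs. In the 9 members without either gene, Plac8 held all of its 42 UMIs, Lyz2 45 of 97 and Mrc1, Lyve1, Pf4 and Folr2 none. The G2/M list stood at 10506 CPM in these 9 and at 3575 CPM in the 47. These groups were defined from the same counts, so the values are a description with no test.

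**Figure D4:**
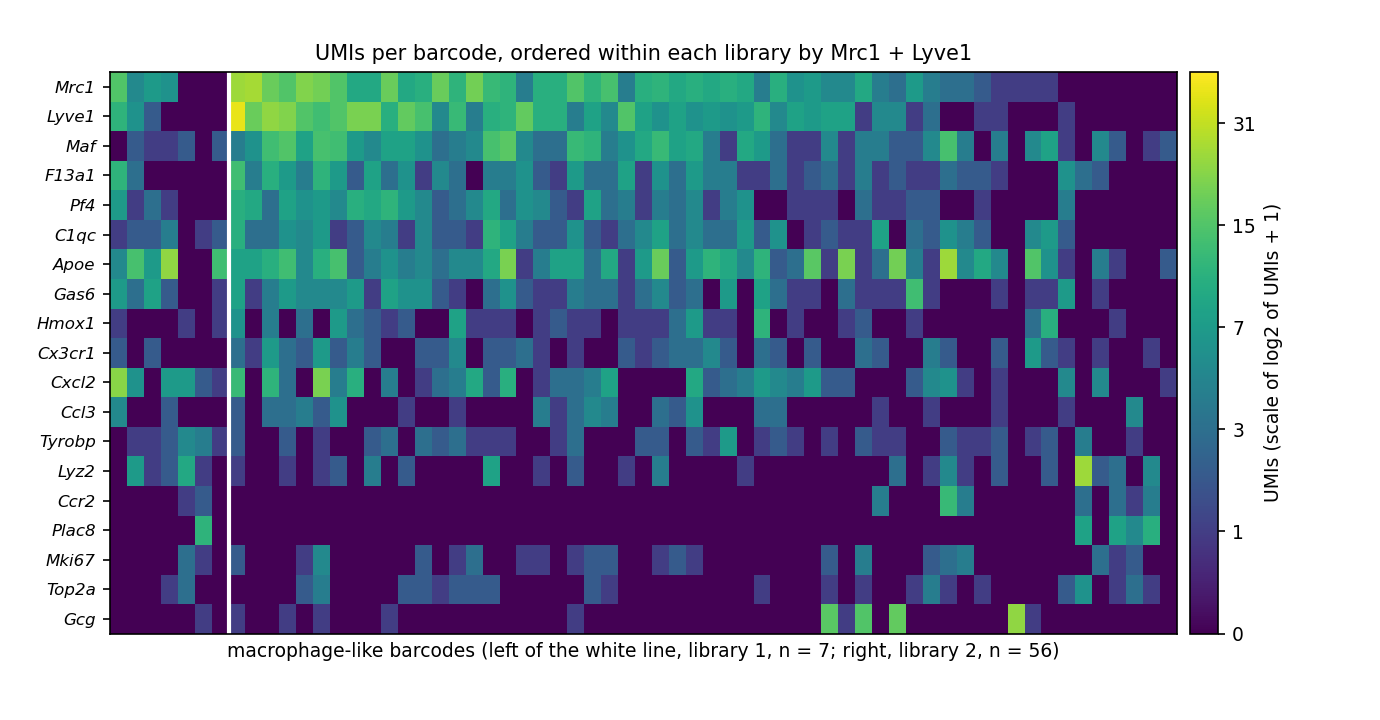
UMIs of 19 genes (rows) in each of the 63 macrophage-like barcodes (columns), ordered within each library by Mrc1 plus Lyve1, on a colour scale of log2(UMIs + 1). The barcodes at the right end of each block, with Mrc1 and Lyve1 at 0, hold the Plac8 UMIs, and Maf and Apoe extend over most barcodes.

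Ccr2 was found in 9 members. In 5 it came with Plac8 and without Mrc1. The other 4 held no Plac8, and all 4 of them carried Maf, 3 Mrc1 and 1 Lyve1. Those 4 held 33 UMIs of Apoe, 18 of C1qc and 15 of Lgmn, where the 5 with Plac8 held 1, 1 and 0, over 14800 and 15054 UMIs. A single member held 25 of the 33 Apoe UMIs, and 10 of the 15 Lgmn UMIs were also in 1 member. Cxcl2 was found in 33 of the 47 members with Mrc1 and Lyve1 and in 5 of the 9 with neither. Zfp36 was found in 43 of the 47 and in all 9.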

How the data were processed

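Single-cell RNA from 2 inDrop libraries of 1 group was analysed. The deposited tables hold whole-number UMI counts for 25507 gene symbols, not normalized; per the labels' protocols, RNA was amplified linearly by a CEL-Seq method, and the build was GRCm38 per the submitters' processing notes. Not given in the sources used here were the aligner, the counting tool and whether it used strand. The members and the 35 gene lists were chosen with earlier results of these data known. All columns were mapped to a library.

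Barcodes passing the filters were read in Python 3.11.15 (numpy 2.4.6, pandas 2.3.3, scanpy 1.11.5). UMIs were summed per library and class and tested with edgeR 4.0.16 (R 4.3.3): filterByExpr, TMM, a model of class plus library, the quasi-likelihood test and Benjamini-Hochberg adjustment, with 1 residual degree of freedom. The 10 genes of the rule and mitochondrial genes were not tested. The median prior degrees of freedom were infinite, so the tests and SEs rest on a spread shared over genes. SE is the fold divided by the root of the F statistic. Levels are plain CPM, whereas fitted folds also use TMM factors. The scripts were tested on simulated data. Genes named with full statistics are, per list, at most 2 called genes with the highest level. Outside the lists they are the 6 largest rises and 6 largest falls of at least 100 CPM in the higher class. Those rises and falls had to have the same sign in both libraries. Other list members are given by value. F13a1 and Folr2 were named after their values were seen. Alternatives were DESeq2 1.42.0, RLE scaling, other filters, other thresholds, no library term, thinning to 1000 UMIs, classes weighted equally and leaving out a library or Scrublet calls. Leaving out members carrying Plac8 or islet hormones was chosen after seeing the data. Intervals and floors cover counting error only. A few genes of the lists are counted in the totals and not reported here by name.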

Additional observations from a re-analysis of the deposited data

How the results depend on the processing

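Against 248 genes higher and 89 lower, the counts were 151 and 51 with no filter on low counts, 630 and 321 with no replicate block (no library term), 75 and 5 with every barcode thinned to 1000 UMIs (7168 genes tested) and 747 and 437 with the other barcodes split into 6 classes of equal weight. Leaving out the Plac8-carrying members, chosen after seeing the data, gave 159 higher genes, all 159 among the 248. The causes were not tested. Under the other settings the counts stayed within 1.5 times the reported ones. Gcg turned to 0.81 on the log2 scale (edgeR, adjusted p = 0.0329) with the split into 6 classes. Of the 54 plotted genes, 51 kept their direction and call with DESeq2, 52 with RLE scaling, 46 with no filter, 46 without the Plac8-carrying members and 26 of 53 after thinning. With a single library there are no residual degrees of freedom and no calls. With library 1 alone, 23 of the 54 folds differed from the fit by more than the spread between libraries. With library 2 alone, 6 did. Those folds are plain CPM with a pseudocount of 1 CPM, not a refit. The fit uses TMM factors, 1.42 and 0.809 for the members of libraries 1 and 2, so the differences include that scaling. All 54 kept their sign, but the 6 largest rises and 6 largest falls were picked for that. For 9 genes with 0 UMIs in the library 1 members the sign there could only be negative. The share of members stayed between 1.14% and 1.36% in library 1 and between 4.44% and 5.83% in library 2. The library term pairs members and other barcodes of the same library. Library 1 rests on 7 members, where 1 UMI is 54.3 CPM.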
